A study of Mus musculus with 12 samples.

Results

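The acute phase response genes are 35 mouse genes whose transcripts encode plasma proteins of the acute phase, a few related liver secretory proteins, and receptors and regulators that act on them. They were picked by symbol, after the Ensembl identifiers of the count files had been matched to mouse symbols, and make up 35 of the 52636 genes listed. All 35 passed the filter on low counts. Each was measured as a number of sequencing reads in total RNA of mouse liver, in 12 libraries of 4 groups with 3 libraries each.

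The study set livers lacking p53, the tumour suppressor encoded by Trp53, against livers with wild-type p53, on a high-fat diet (HFD) or on a normal diet. All mice were of the inbred strain C57BL/6 and 12 weeks old. The group ko_HFD is p53 ko on HFD, wt_HFD is p53 wt on HFD, ko_normal is p53 ko on a normal diet and wt_normal is p53 wt on a normal diet. The sources used here do not give the ko allele, the cells that lack p53, the sex of the mice, the length of the diet, the feeding state or the hour of sampling. Nothing in the labels ties the 3 libraries of a group to 3 different mice. A p-value thus measures how far libraries differ, and part of that spread may be technical.

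In the acute phase response, injury or infection leads immune cells to release cytokines such as interleukin-6 and interleukin-1, which act on hepatocytes. Signalling through STAT3, NF-kB and the C/EBP transcription factors then raises the transcription of plasma proteins such as serum amyloid A, haptoglobin and fibrinogen, while albumin and other negative acute phase proteins decline. In mice, serum amyloid A is the classical responder with the widest range, whereas C-reactive protein, the main human responder, moves little.

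Total counts were 15465187 to 20492567 per library. Trp53 was measured at 0.701, 0.748 and 0.752 CPM (read counts scaled to library size with edgeR's TMM factors) in ko_HFD, 8.54, 10.7 and 24.5 CPM in wt_HFD, 1.62, 0.399 and 0.273 CPM in ko_normal, and 16.3, 14.5 and 15.6 CPM in wt_normal, in the order of replicates 1 to 3. Every ko library thus lay below every wt library. The 8 hepatocyte markers were found in every library and together reached 34143 to 68272 CPM, led by albumin. One library stood apart: 6 skeletal muscle markers summed to 7638 CPM in wt_normal replicate 2, against 2.55 to 10.9 CPM in the other libraries. In that library 6 B and plasma cell markers also summed to 159 CPM, against 6.26 to 13.3 CPM in the others. Reads of mitochondrially encoded genes took 14.6% of ko_normal replicate 1 and 10.3% of ko_HFD replicate 2, against 4.18% to 7.22% in the others. In whole liver, fewer cells of a type and less RNA per cell cannot be told apart.

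Promoter sequences are shown for 6 members on which the results turn, the 4 Saa genes, Orm2 and Lcn2, which were chosen because their promoters hold C/EBP letters. RefSeq promoters of build GRCm38.p6, from 250 bases before to 50 bases after a start site, were matched to 27 of the 35 members, which have 29 such promoters. Serpina10 is among the 8 members not matched. They were searched on both strands for 5 short motifs: for NF-kB GGG, any 2 bases, TT, any base and CC, TTGCNNAA for C/EBP, TTCNNNGAA for STAT, ACANNNTGT for the glucocorticoid receptor and TGCGCNC for the metal response. The 6 promoters are written 5′ to 3′ along the gene with motif matches in capitals. Saa1 lies at chr7:46742931-46743230 on the minus strand, Saa2 at chr7:46751583-46751882 on the plus strand, Saa3 at chr7:46715627-46715926 on the minus strand, and Saa4 at chr7:46732554-46732853 on the minus strand. Orm2 lies at chr4:63362199-63362498 on the plus strand and Lcn2 at chr2:32387690-32387989 on the minus strand.
Saa1: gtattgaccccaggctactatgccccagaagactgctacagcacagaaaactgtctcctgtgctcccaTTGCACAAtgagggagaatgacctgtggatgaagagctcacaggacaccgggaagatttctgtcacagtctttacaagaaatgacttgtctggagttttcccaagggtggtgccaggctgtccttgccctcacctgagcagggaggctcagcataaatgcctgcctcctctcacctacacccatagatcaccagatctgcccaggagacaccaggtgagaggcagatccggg
Saa2: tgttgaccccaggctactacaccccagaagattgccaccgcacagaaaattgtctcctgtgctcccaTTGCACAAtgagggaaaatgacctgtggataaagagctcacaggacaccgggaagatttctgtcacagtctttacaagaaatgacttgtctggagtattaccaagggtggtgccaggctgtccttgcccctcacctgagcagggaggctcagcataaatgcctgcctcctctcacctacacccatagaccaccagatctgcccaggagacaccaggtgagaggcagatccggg
Saa3: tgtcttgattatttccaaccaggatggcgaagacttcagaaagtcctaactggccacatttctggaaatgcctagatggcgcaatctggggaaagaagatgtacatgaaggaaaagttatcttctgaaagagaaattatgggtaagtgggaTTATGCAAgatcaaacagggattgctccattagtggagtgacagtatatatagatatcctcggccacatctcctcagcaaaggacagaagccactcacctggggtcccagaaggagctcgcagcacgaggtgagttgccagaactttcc
Saa4: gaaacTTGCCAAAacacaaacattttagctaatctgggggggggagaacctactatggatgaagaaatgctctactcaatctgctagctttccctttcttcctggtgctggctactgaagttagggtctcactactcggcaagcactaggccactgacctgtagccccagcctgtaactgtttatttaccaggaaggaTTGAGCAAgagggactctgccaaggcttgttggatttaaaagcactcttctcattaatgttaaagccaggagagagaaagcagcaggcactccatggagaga
Orm2: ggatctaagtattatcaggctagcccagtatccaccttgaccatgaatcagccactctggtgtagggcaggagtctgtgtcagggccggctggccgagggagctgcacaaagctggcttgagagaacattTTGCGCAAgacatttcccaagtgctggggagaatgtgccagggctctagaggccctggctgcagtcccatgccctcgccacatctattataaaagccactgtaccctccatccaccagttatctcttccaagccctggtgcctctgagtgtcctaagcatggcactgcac
Lcn2: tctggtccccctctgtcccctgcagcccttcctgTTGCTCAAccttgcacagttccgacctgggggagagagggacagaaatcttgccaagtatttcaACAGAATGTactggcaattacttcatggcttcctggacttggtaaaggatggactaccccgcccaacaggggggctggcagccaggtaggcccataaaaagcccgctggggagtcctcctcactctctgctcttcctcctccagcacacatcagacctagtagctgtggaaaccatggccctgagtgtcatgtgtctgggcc
The promoters of Saa1 and Saa2, neighbours on chromosome 7, hold the same C/EBP match TTGCACAA, beginning 182 and 183 bases before the start site. That of Orm2 holds TTGCGCAA 120 bases before the start site. The Saa3 match and the second of 2 matches in Saa4 lie on the opposite strand, and in Lcn2 the C/EBP match is followed by ACAGAATGT, a glucocorticoid receptor match.

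Of the 8 members with the widest range between libraries 7 hold the C/EBP letters, and Apcs does not. The letters were found in 14 of the 29 member promoters, or 48.3%, against 10.8% of the 32851 mouse promoters in the table. Saa1 and Saa2 have closely similar promoter sequences, as do Orm2 and Orm3. Both counts include these similar promoters separately, so their matches are not independent. STAT letters stood in 6 member promoters, those of Apcs, Fga, Fgb, Itih4, Socs3 and Steap4, which is 20.7% against 8.3% of all promoters. Glucocorticoid receptor letters also stood in 6, or 20.7% against 6.85%, and included Fgb and Serpina3n. NF-kB letters were matched in 2 promoters, those of Serpina3n and Steap4, or 6.9% against 4.79%. The metal response letters were matched in 3, those of Fgg, Mt1 and Mt2, or 10.3% against 15.4%. These counts describe letters in a window. They show neither binding nor its absence.

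As a group the 35 members took a larger share of the RNA in 4 of the 12 libraries than in the other 8. They made up 13%, 3.88% and 3.97% of all counts in ko_HFD replicates 1, 2 and 3, and 11.9%, 12.8% and 12.4% in the 3 wt_HFD libraries. They made up 2.82%, 5.9% and 5.24% in ko_normal and 4.75%, 5.39% and 6.4% in wt_normal. All 3 wt_HFD libraries lay above both normal-diet groups. In ko_HFD, replicate 1 lay above every other library, while replicates 2 and 3 lay below every wt_normal library.

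**Figure D1:**
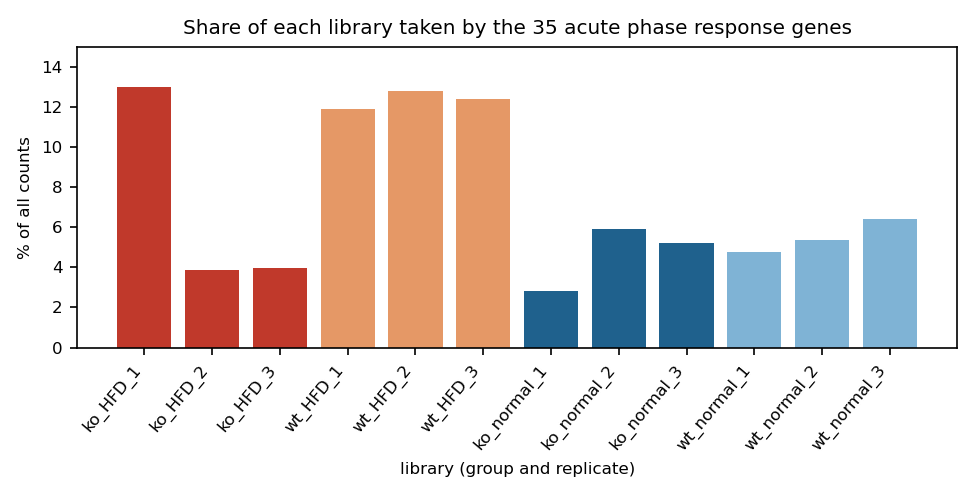
Share of all counts, in percent, that the 35 acute phase response genes took in each library, with bars coloured by group. The bars of ko_HFD replicate 1 and of the 3 wt_HFD libraries stand at 11.9% to 13%, and the other 8 at 2.82% to 6.4%.

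Levels of the members spanned more than 3 orders of magnitude when expressed per length. Averaged over the 12 libraries, haptoglobin (Hp), which binds free haemoglobin, had 11301 CPM per kilobase of exon. It was followed by hemopexin (Hpx), which binds haem, at 6433, the serpin Serpina3k at 4977, orosomucoid 1 (Orm1) at 3243 and serum amyloid A2 (Saa2) at 2509 CPM per kilobase. The receptor Il6ra at 4.65, the transcription factor Cebpd at 5.96 and Stat3 at 9.42 CPM per kilobase were lowest.

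Of the serum amyloid A genes, which encode lipoprotein-bound acute phase proteins, Saa2, Saa1 and Saa3 had the widest ranges of the 35 members. Saa2 had 18275, 81.9 and 222 CPM in ko_HFD, 13452, 16476 and 14741 CPM in wt_HFD, 23.3, 1584 and 592 CPM in ko_normal, and 253, 3211 and 6893 CPM in wt_normal, each in the order of replicates 1 to 3. Its highest library was 785-fold above its lowest. Saa1 had 15302, 169 and 271 CPM in ko_HFD, 12324, 13606 and 12994 CPM in wt_HFD, 55.2, 2524 and 963 CPM in ko_normal, and 691, 3735 and 6159 CPM in wt_normal. For both genes the 3 wt_HFD libraries were close together and above every normal-diet library, and the ko_HFD libraries fell on both sides of them. Saa1 and Saa2 share 31.5% and 30% of their 50-base stretches with other genes, mainly with each other, so how reads were divided between them is uncertain.

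Saa3, the member of the family that is also made outside hepatocytes, had 2003, 36.4 and 96 CPM in ko_HFD, 609.8, 583 and 244 CPM in wt_HFD, 15.9, 38.2 and 43.6 CPM in ko_normal, and 22.2, 136 and 105 CPM in wt_normal. Saa4, regarded as the constitutive member of the family, varied over a narrower range: it had 1438, 642 and 471 CPM in ko_HFD, 1261, 1184 and 945 CPM in wt_HFD, 283, 409 and 395 CPM in ko_normal, and 294, 189 and 223 CPM in wt_normal. In both genotypes every HFD library of Saa4 lay above every normal-diet library. The other 3 Saa genes showed that separation in wt livers, and in ko livers their groups overlapped.

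Lcn2, encoding lipocalin-2, which withholds iron from bacteria, had 1376, 29.5 and 57 CPM in ko_HFD, 588, 493 and 872 CPM in wt_HFD, 11.4, 169 and 67.5 CPM in ko_normal, and 38.4, 94.9 and 77.1 CPM in wt_normal. Its wt_HFD libraries all lay above those of wt_normal, and 1 ko_HFD library lay above all of them. Lcn2 is also made by neutrophils. The 12 neutrophil and monocyte markers, of which 5 passed the filter, summed to 7.83 to 45.1 CPM in ko_HFD, 9.92 to 23.3 CPM in wt_HFD, 4.98 to 10.6 CPM in ko_normal and 8.07 to 11.4 CPM in wt_normal. The highest sum was that of ko_HFD replicate 1. That library had the highest level of 6 of the 12 markers, where it had the highest level of 7.31% of all tested genes. The 6 were S100a8 at 10.7, S100a9 at 17.3, Csf3r at 13.1, Cxcr2 at 0.934, Ly6g at 0.292 CPM, and Mpo. Elane, Camp, Ngp, Ltf, Ly6c2 and Ccr2 were highest in other libraries. Ly6g, Mpo and Camp were near the limit of detection, with 0 to 5 counts in every library. The part of such cells in the Lcn2 levels was not tested.

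The orosomucoids Orm1, Orm2 and Orm3 are plasma glycoproteins that carry drugs and lipids. Orm2 had 718, 19.1 and 20.9 CPM in ko_HFD, 402, 153 and 239.9 CPM in wt_HFD, 13.6, 75.3 and 88.7 CPM in ko_normal, and 54.9, 124 and 234 CPM in wt_normal. Orm3 had 172, 7.14 and 4.39 CPM in ko_HFD, 15.9, 36.3 and 9.35 CPM in wt_HFD, 13.4, 8.79 and 8.12 CPM in ko_normal, and 8.12, 8.48 and 9.5 CPM in wt_normal. For Orm3 ko_HFD replicate 1 was the highest library, followed by wt_HFD replicate 2, and its HFD and normal-diet groups overlapped in both genotypes. Orm1 and Orm2 share 20.4% and 22.7% of their 50-base stretches with other genes, so their counts are uncertain in part.

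Apcs encodes serum amyloid P, the pentraxin that rises in the acute phase of mice. It had 672, 74.8 and 88.1 CPM in ko_HFD, 638, 512 and 1212 CPM in wt_HFD, 44.4, 206 and 152 CPM in ko_normal, and 92.2, 51.3 and 63.7 CPM in wt_normal. The wt_HFD libraries lay above all wt_normal libraries. Crp, the other pentraxin, stayed between 152 and 509 CPM in all 12 libraries.

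Mt1 and Mt2 encode metallothioneins, which bind zinc and copper. Mt2 had 28.7, 2.24 and 2.76 CPM in ko_HFD, 21.8, 53.6 and 16.7 CPM in wt_HFD, 5.21, 6.84 and 6.38 CPM in ko_normal, and 5.05, 10.8 and 9.76 CPM in wt_normal. Mt1 ran from 492 to 8095 CPM, and its lowest and highest libraries, ko_HFD replicate 2 and wt_HFD replicate 2, were those of Mt2. An unnamed gene model, Gm45774, overlaps Mt2 on the opposite strand, and whether counting used strand is not stated, so the low Mt2 counts are uncertain.

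**Figure D2:**
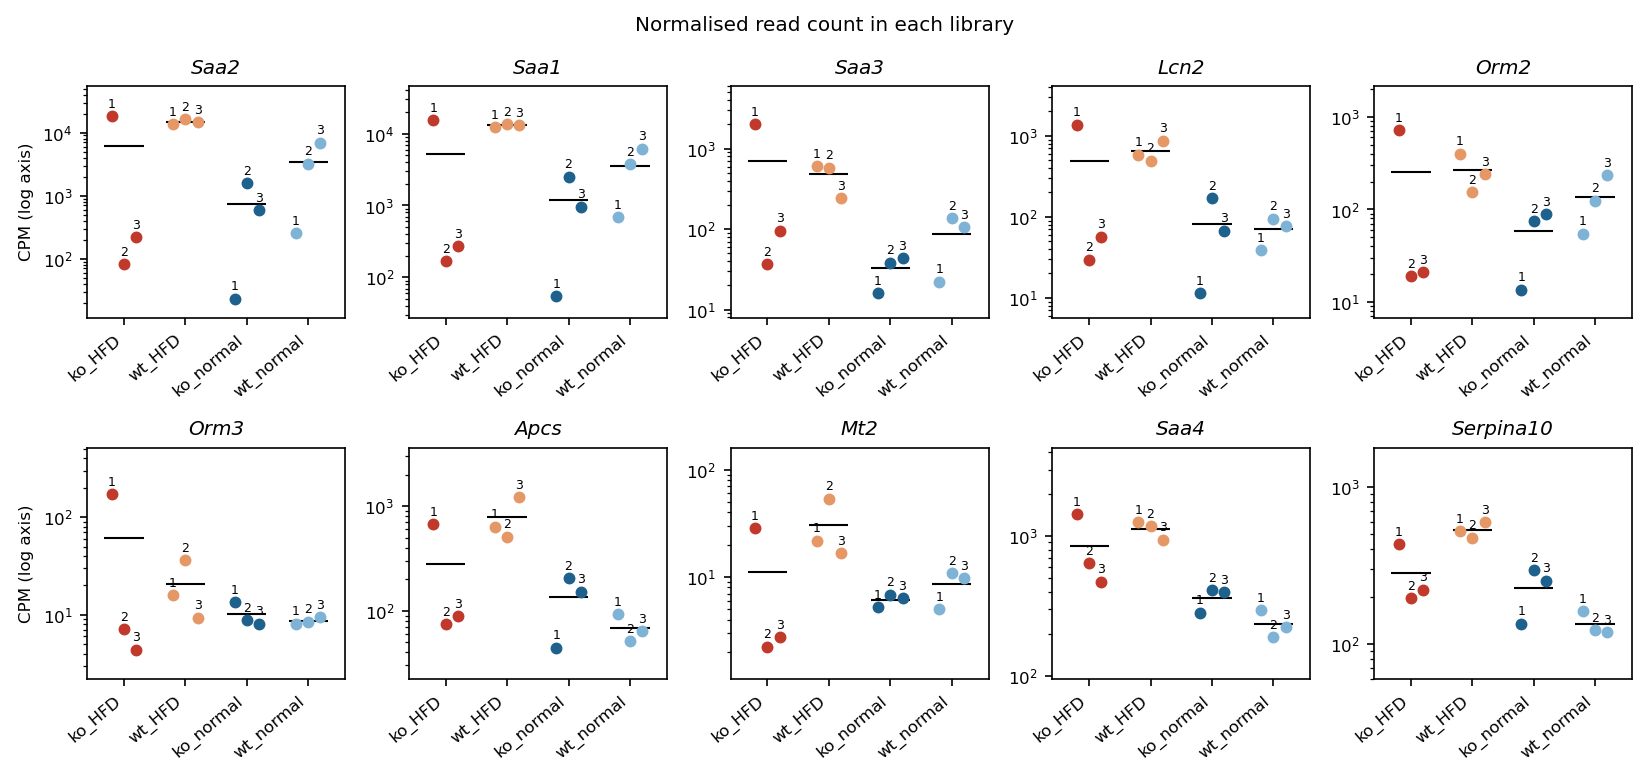
Normalised read count in CPM, on a log axis, of the 8 members with the widest range between libraries and of Saa4 and Serpina10. Points are single libraries numbered by replicate and lines are the means of 3 libraries; replicate 1 of ko_HFD is the highest of its group in all 10 panels, as with 15302 CPM against 169 and 271 CPM for Saa1.

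HFD was set against normal diet in wt livers to ask what the diet did where p53 was present. Saa4 and Serpina10 rose and no other member passed the test, although 34 of the 35 members had a positive fold change. Saa4 averaged 1130 ± 165 CPM in wt_HFD and 235 ± 53.5 CPM in wt_normal (SD, n = 3 each), a log2 fold change of 2.26 ± 0.36 (SE) with an adjusted p of 0.024 in edgeR's quasi-likelihood test. Serpina10 encodes the protein Z-dependent protease inhibitor, which restrains coagulation. It had 523, 474 and 595 CPM in wt_HFD and 161, 122 and 119 CPM in wt_normal, and its log2 fold change was 1.99 ± 0.33 with an adjusted p of 0.0259 in the same edgeR test. In the ko groups Serpina10 had 432, 196 and 221 CPM on HFD and 134, 294 and 252 CPM on normal diet, which overlap.

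Those 2 calls stand against 0.693% of the 14433 tested genes called in that comparison. An unadjusted p under 0.05 was reached by 20 members, where 17% of all genes did so. The median log2 fold change of the 35 members was 1.06, against -0.03 for all tested genes. In 24 members every wt_HFD library lay above every wt_normal library, against 11.2% of all genes, and in 0 members the order was the opposite, against 10.7%. With wt_normal replicate 2 left out the count of members lying wholly above was 25, against 15.2% of all genes. The scale was unchanged there, so the count could only stay or rise and does not test the weight of that library.

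By role, the separation of wt_HFD above wt_normal covered all 4 Saa genes, both haem scavengers and both inter-alpha-trypsin inhibitors. Hp had 36578, 35045 and 28187 CPM in wt_HFD and 9993, 9740.2 and 10879.7 CPM in wt_normal, with a log2 fold change of 1.71 ± 0.42 and an edgeR adjusted p of 0.0868. For Apcs the log2 fold change was 3.51 ± 0.82 with an edgeR adjusted p of 0.0739. Neither passed the threshold of 0.05. The separation also held for 3 of the 4 fibrinogen family genes: Fgb and Fgg, encoding fibrinogen chains, and Fgl1, a fibrinogen-like secreted protein. Fga, the third fibrinogen chain, overlapped, with 1219, 1957 and 3421 CPM in wt_HFD and 1574, 1115 and 1631 CPM in wt_normal.

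Among the lectins and lipid-binding proteins that recognise microbes, Mbl1 and Lbp separated and Mbl2 did not. Lbp, the lipopolysaccharide-binding protein, had 344, 247 and 384 CPM in wt_HFD and 195, 162 and 187 CPM in wt_normal. Mbl2, a mannose-binding lectin, had 243, 249.7 and 276 CPM in wt_HFD and 301, 223 and 197 CPM in wt_normal. Of the serpins, the protease inhibitor Serpina3n separated, while Serpina3m and Serpina3k, which overlap each other on chromosome 12, did not.

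Among the iron and metal genes, Mt1, Mt2 and the metalloreductase gene Steap4 separated. Steap4 had 66.9, 147 and 209 CPM in wt_HFD and 39.3, 21.5 and 28.9 CPM in wt_normal. Cp, encoding the copper protein ceruloplasmin, overlapped. Of the regulators, the signal transducer Stat3, its feedback inhibitor Socs3 and the transcription factor Cebpb separated. The cytokine receptors Il1r1 and Il6ra and the factor Cebpd did not, and Il6ra, with -0.09 ± 0.21, was the 1 member whose log2 fold change was negative.

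Both calls were lost in each of 4 fits that left out a library. Without wt_normal replicate 2, the library with muscle transcripts, the adjusted p of edgeR's test was 0.0917 for Saa4 and 0.0963 for Serpina10. It was 0.083 and 0.0933 without wt_normal replicate 3, 0.0627 and 0.0646 without wt_HFD replicate 1, and 0.0659 for both without wt_HFD replicate 2. Serpina10 alone was lost without ko_normal replicate 3, at 0.0518. Without ko_HFD replicate 1, 5 members and 0.877% of all genes were called. DESeq2 called 10 members and 4.57% of all genes, and limma voom 5 members and 2.52%, with all these members higher in wt_HFD. Without a filter on low counts 12 members and 2.65% of genes were called, and with only the wt groups in the fit 6 members and 0.248%.

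**Figure D3:**
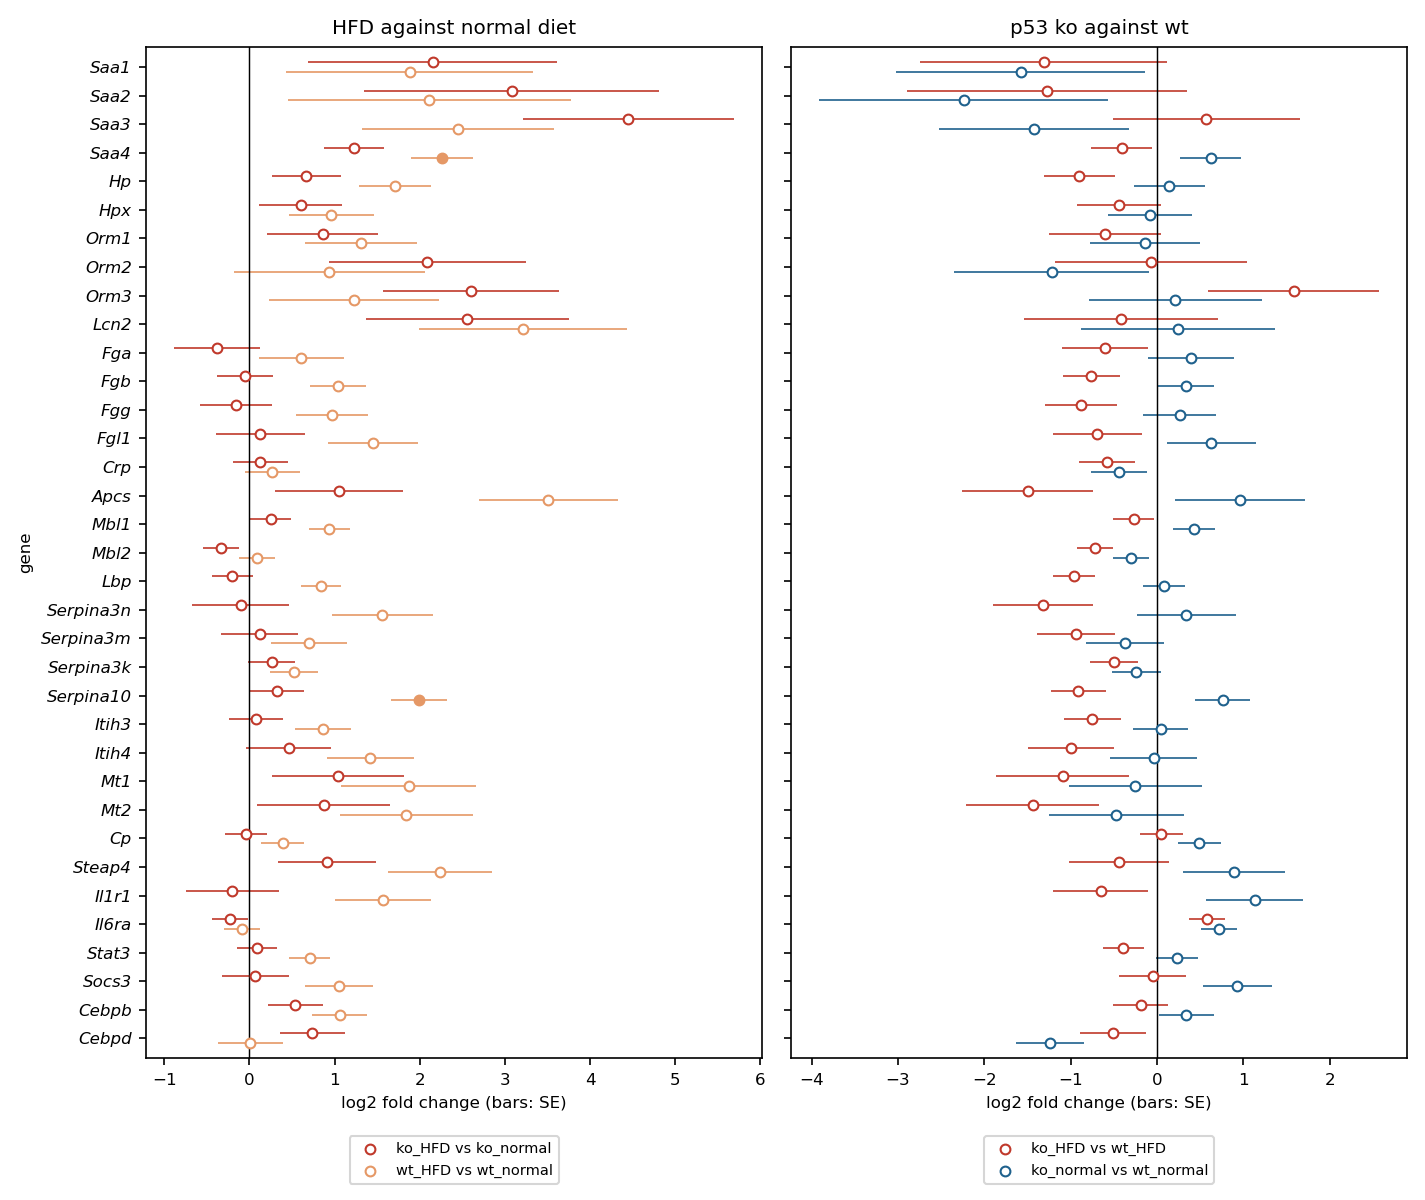
Fitted log2 fold change of each member with its SE, on the left for HFD against normal diet in ko and wt livers and on the right for p53 ko against wt on each diet. Filled points passed an adjusted p under 0.05: Saa4 at 2.26 and Serpina10 at 1.99, both for wt_HFD against wt_normal.

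HFD was set against normal diet in ko livers as well. There edgeR called 0 of the 35 members and 0% of all genes. DESeq2 and limma voom also called 0 members, where they called 0.256% and 0.0416% of all genes. At an unadjusted edgeR p under 0.05 stood 3 members, against 5.63% of all genes. The median log2 fold change of the members was 0.32, against 0 for all genes. The 4 members with the smallest p were Saa3 at 4.45 ± 1.24, Saa4 at 1.23 ± 0.35, Orm3 at 2.60 ± 1.03 and Lcn2 at 2.56 ± 1.19. Their adjusted edgeR p-values were 0.585, 0.589, 0.868 and 0.868. Saa4 was the 1 member whose ko_HFD libraries all lay above the ko_normal libraries, against 5.45% of all genes.

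These values depended on ko_HFD replicate 1 to different degrees. Without it the median log2 fold change of the members was -0.46, and the values of Orm3 and Lcn2 were -0.81 and -0.93. Those of Saa3 and Saa4 were still positive, at 1.02 and 0.62. With voom's sample weights the median was -0.26. Without a filter on low counts 1 member, Saa3, was called, with 0.0799% of all genes.

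Within ko_HFD, replicate 1 had the highest level of all 35 members, where it was the highest of the 3 for 33.3% of all genes. With library totals alone as the scale the count was 33 members and 24.4% of genes. The ratio of replicate 1 to replicate 2 had a median of 2.60 over the members and ran from 1.13 to 223. To replicate 3 it had a median of 2.66 and ran from 1.01 to 82.2. The genes with the largest ratios between the highest and lowest ko_HFD library were Saa2 at 223, Saa1 at 90.4, Saa3 at 55.1 and Lcn2 at 46.7.

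The 3 ko_HFD libraries thus stood in different places relative to the other groups. Replicate 1 lay above all wt_normal libraries for 33 members and above all ko_normal libraries for 31, against 31.6% and 27% of all genes. Against wt_HFD it was above all 3 libraries for 13 members, within their range for 19 and below it for 3, where the shares of all genes were 22.4%, 54.5% and 23.1%. Replicate 2 lay below all wt_HFD libraries for 32 members and replicate 3 for 28, against 26.8% and 25.1% of all genes. They lay above all ko_normal libraries for 2 and 5 members, against 24.7% and 23.7%. Replicates 2 and 3 lay below all wt_normal libraries for 19 and 18 members, against 36.6% and 32.7% of all genes. Below all ko_normal libraries they lay for 10 and 9 members, against 25.9% and 22.8%. In the heat map of centred levels, 34 members were above their mean in replicate 1 of ko_HFD. In replicates 2 and 3 of ko_HFD 3 and 4 members were, and in the wt_HFD libraries 30, 33 and 32.

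**Figure D4:**
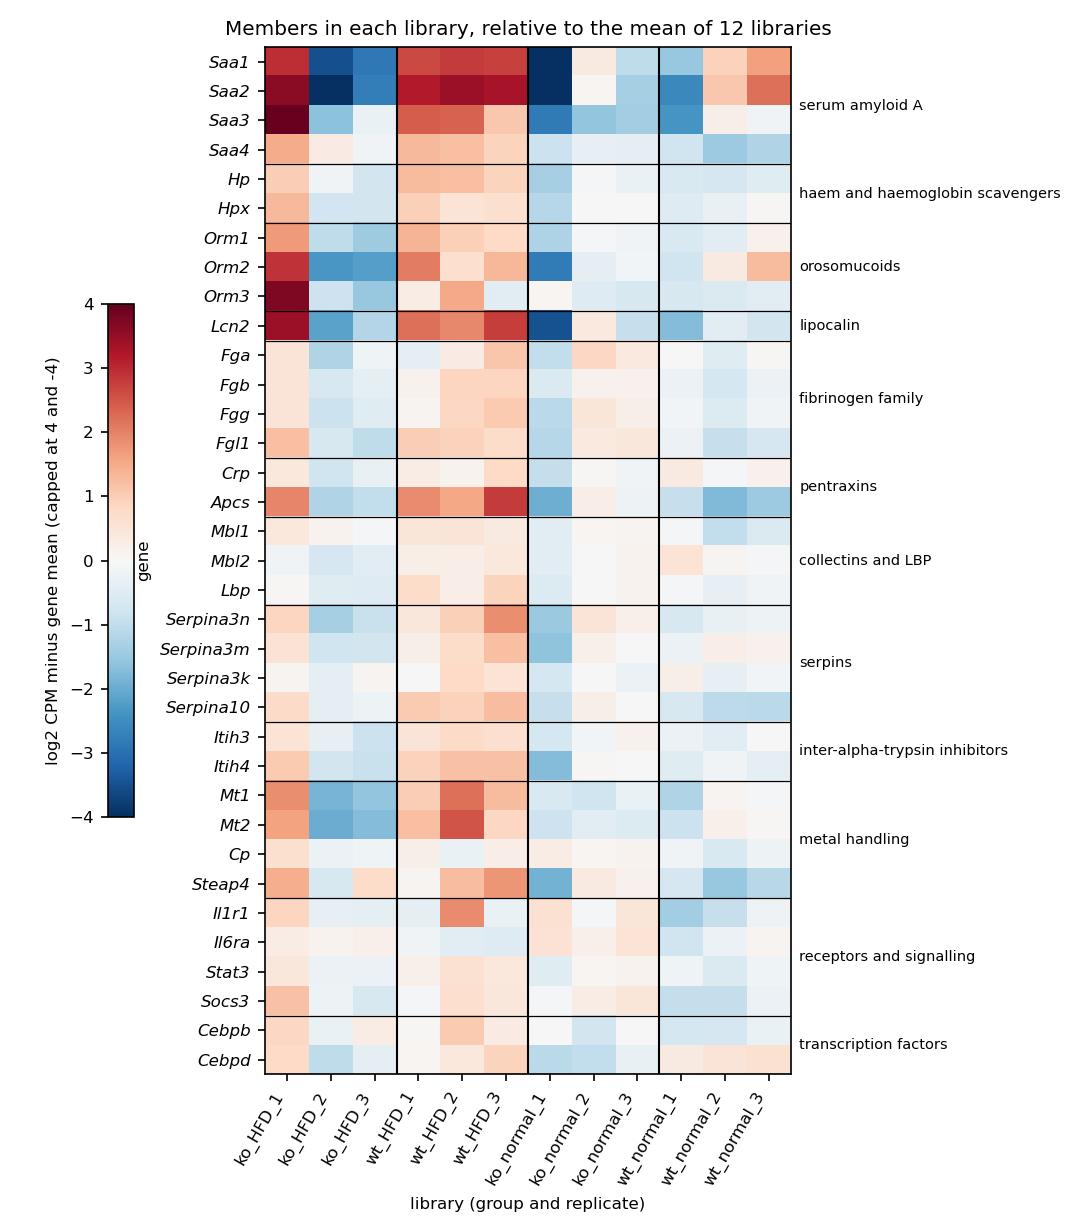
Level of each member in each library as log2 CPM minus that gene's mean over the 12 libraries, with rows by role, columns by group and replicate, and colours capped at 4 and -4. Members are above their mean in most squares of ko_HFD replicate 1 and of wt_HFD, and ko_normal replicate 1 is the lowest of its group for 29 of 35 members.

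The spread within ko_HFD was wider for the members than for genes at large. The median SD of log2 CPM over its 3 libraries was 0.88 for the members and 0.29 for all genes. The same pair of values was 0.39 and 0.33 in wt_HFD, 0.54 and 0.31 in ko_normal, and 0.30 and 0.24 in wt_normal. In ko_normal, replicate 1 was the lowest of its group for 29 of the 35 members, where it was the lowest for 41.1% of all genes. The 2 libraries with the highest mitochondrial shares, ko_normal replicate 1 at 14.6% and ko_HFD replicate 2 at 10.3%, had the lowest shares of member counts, 2.82% and 3.88%. The library with the lowest mitochondrial share, ko_HFD replicate 1 at 4.18%, had the highest share of member counts. That order did not hold throughout. The mitochondrial share was 6.51% in wt_HFD replicate 2, with 12.8% of counts in members, and 4.68% in wt_normal replicate 3, with 6.4%. The part of RNA quality in these levels was not tested.

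In ko_HFD replicate 1 the 12 macrophage and Kupffer cell markers summed to 785 CPM, against 307 to 639 CPM in the other 11 libraries. Clec4f, Cd5l, C1qa, Csf1r and Timd4 were highest in that library, which held the highest level of 7.31% of all tested genes. Adgre1, Vsig4, Cd68, Cd163, Marco, C1qb and C1qc were each higher in another library, so the sum does not describe all the markers. By group the sums ran from 398 to 785 CPM in ko_HFD, 480.3 to 592 CPM in wt_HFD, 307 to 639 CPM in ko_normal and 423 to 637 CPM in wt_normal, and none of the 12 was at 0 in all libraries. Their part in the levels of the members was not tested.

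Livers with and without p53 were then compared on HFD. The edgeR test called 0 members, where 0.0693% of all genes were called. The unadjusted p was under 0.05 for 7 members, or 1 higher and 6 lower in ko_HFD, against 8.85% of all genes. DESeq2 called 1 member, Lbp, and 0.658% of all genes, and limma voom called 0 members and 0.0346%. The median log2 fold change was -0.60 over the members and -0.01 over all genes, with 31 of 35 values negative.

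Lbp had 212, 147 and 142 CPM in ko_HFD and 344, 247 and 384 CPM in wt_HFD, a log2 fold change of -0.96 ± 0.24 with an edgeR adjusted p of 0.307. Mbl2 had 187, 128 and 151 CPM in ko_HFD and 243, 249.7 and 276 CPM in wt_HFD, at -0.72 ± 0.21 with an edgeR adjusted p of 0.401. With Serpina10, at -0.91 ± 0.32 and an edgeR adjusted p of 0.464, they were the 3 members whose ko_HFD libraries all lay below the wt_HFD libraries, against 6.85% of all genes. Il6ra, the receptor subunit that binds interleukin-6, lay the other way. It had 48.1, 42.8 and 44.7 CPM in ko_HFD and 35.3, 28.6 and 27 CPM in wt_HFD, at 0.58 ± 0.21 with an edgeR adjusted p of 0.483, and was the 1 member wholly above, against 6.7% of all genes.

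The fitted values again depended on ko_HFD replicate 1. Without it the median over the members was -1.35. At an unadjusted edgeR p under 0.05 stood 27 of 35, against 9.78% of all genes. After adjustment 0 members and 0.0134% of all genes were called. Without replicate 2 of ko_HFD 4 members had an unadjusted p under 0.05, against 6.63% of all genes, and without replicate 3 likewise 4, against 6.45%.

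The same comparison was made on normal diet. The edgeR test called 0 members, where 0.208% of all genes were called, and the median log2 fold change was 0.21 over the members and -0.02 over all genes. An unadjusted p under 0.05 was reached by 4 members, against 15.1% of all genes. DESeq2 called 1 member, Cebpd, as did edgeR without a filter on low counts, where they called 3.67% and 2.46% of all genes. Limma voom called 8 of the 35 members, but also 18.8% of all genes. Every ko_normal library lay above every wt_normal library for Il1r1, Socs3, Il6ra and Cp, 4 members against 11.4% of all genes, and below for Cebpd, 1 member against 11.4%. The first count was near the share of genes at large, and the second was below it.

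Il6ra had 58.3, 44.5 and 56.4 CPM in ko_normal and 22.3, 32.6 and 41.9 CPM in wt_normal, a log2 fold change of 0.72 ± 0.21 with an edgeR adjusted p of 0.143. Il6ra thus lay wholly above in ko livers on both diets, though neither test passed. The share of all genes lying so on both diets was not counted. On normal diet alone it was 11.4%, and on HFD alone 6.7%. Gm42809 overlaps Il6ra on the opposite strand. Cebpd, the C/EBP family member that cytokines induce early, had 9.5, 10.2 and 16.4 CPM in ko_normal and 25.9, 28.9 and 30.6 CPM in wt_normal, at -1.24 ± 0.39 with an edgeR adjusted p of 0.157. On HFD its groups overlapped, with 34.9, 9.84 and 15.7 CPM in ko_HFD and 21.5, 27 and 37.6 CPM in wt_HFD. Spidr overlaps Cebpd on the opposite strand, and whether counting used strand is not stated. Socs3 had 38.8, 49.3 and 55.7 CPM in ko_normal and 20.7, 20.5 and 34.2 CPM in wt_normal, at 0.93 ± 0.40 with an edgeR adjusted p of 0.296. Serpina10 completed the 4 smallest p-values, at 0.76 ± 0.32 with an edgeR adjusted p of 0.295.

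Whether the p53 effect differed between the diets was tested as the ko effect on HFD minus the ko effect on normal diet. The edgeR test called 0 members and 0% of all genes. DESeq2 and limma voom called 0 members, and 0.132% and 0.00693% of all genes. The unadjusted edgeR p was under 0.05 for 5 members, against 5.02% of all genes. The median of the difference was -0.70 log2 units over the members and 0.01 over all genes, and 29 of the 35 differences were negative. The smallest p-values were those of Serpina10 at -1.67 ± 0.46, Lbp at -1.04 ± 0.33, Fgb at -1.08 ± 0.47 and Apcs at -2.46 ± 1.06. Their adjusted p-values in edgeR's test were 0.825, 0.913, 0.968 and 0.97. Without ko_HFD replicate 1 the median of the difference was -1.67, again with 0 members called. This comparison and the 4 above share libraries, so they are not independent of each other.

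Other genes of the response were read from 3 further lists. Of 26 other acute phase and complement proteins 25 were tested and 0 were called in any of the 5 comparisons. In wt_HFD against wt_normal 6 of them were higher and 1 lower at an unadjusted edgeR p under 0.05, against 8.49% and 8.51% of all genes. Lrg1, a plasma glycoprotein induced by interleukin-6, had 4059, 4713 and 5206 CPM in wt_HFD and 1052, 778 and 1034 CPM in wt_normal, at 2.29 ± 0.57 with an edgeR adjusted p of 0.0875. In the ko groups it had 3807, 1276 and 1195 CPM on HFD and 471, 2785 and 2154 CPM on normal diet. Replicate 1 of ko_HFD again lay closer to wt_HFD than the other 2 did.

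Of 17 negative acute phase proteins all were tested and 0 were called in any comparison. In wt_HFD against wt_normal 15 of the 17 had a positive fold change, against 47.2% of all genes. Their median log2 fold change was 0.27, against -0.03 for all genes. Albumin, the main plasma protein, had 43893, 36294 and 45464 CPM in ko_HFD, 27185, 17789 and 24903 CPM in wt_HFD, 41828, 44882 and 41513 CPM in ko_normal and 28003, 19830.3 and 21788 CPM in wt_normal. Each ko library of Alb lay above each wt library. Its log2 fold change for ko against wt was 0.85 ± 0.25 on HFD, with an edgeR adjusted p of 0.401, and 0.88 ± 0.25 on normal diet, with an edgeR adjusted p of 0.13.

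Of 40 cytokine signalling genes 36 were tested, and Bcl3 was the 1 gene called in any comparison. Bcl3, a nuclear partner of NF-kB, rose in wt_HFD, with 46, 58.3 and 89.6 CPM against 26.5, 14.7 and 27.4 CPM in wt_normal, at 1.5 ± 0.27 with an edgeR adjusted p of 0.0322. With only the wt groups in the fit that p was 0.107, without wt_normal replicate 2 it was 0.0963, and the call was also lost without ko_normal replicate 2 or 3, wt_normal replicate 3, ko_HFD replicate 2 or wt_HFD replicate 2 or 3, at 0.0503 to 0.083. In the ko groups Bcl3 had 62.5, 64.1 and 47.6 CPM on HFD and 52.1, 53.6 and 47.6 CPM on normal diet, with no such gap. The following genes were chosen after their values were seen. The ligand gene Il6 had 0 to 2 counts per library and Il22 had 0 in all 12, which allows up to 3 counts in each, so neither can be compared at this depth. The chemokine gene Cxcl1 had 247, 16.3 and 13.2 CPM in ko_HFD, 45.3, 19 and 158 CPM in wt_HFD, 23.8, 28.9 and 36.1 CPM in ko_normal, and 3.26, 1.19 and 1.43 CPM in wt_normal. Its highest library was ko_HFD replicate 1, as for the Saa1, Saa2 and Saa3 transcripts. In the same list Il1b and Socs1 were also highest there, at 6.07 and 3.1 CPM. Tnfaip3, Nfkbiz, Relb and Junb were instead highest in wt_HFD replicate 3, at 46.9, 57.5, 23.2 and 404 CPM. Those genes had 5.37, 16.1, 5.55 and 150.4 CPM in ko_HFD replicate 1.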

How the data were processed

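RNA of mouse liver was sequenced in 12 libraries, and per the labels' protocols libraries followed standard Illumina methods. The deposited files hold whole-number read counts per Ensembl gene, 1 column per library. CASAVA 1.8, Bowtie 0.12.2 and the builds mm8 and mm9 are named in the submitters' processing notes, with no role or order. How reads were counted, with which annotation and whether by strand, is not given in the sources used here. Reads of overlapping genes, antisense genes or near-identical copies therefore cannot be told apart.

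Of 52636 identifiers 52403 matched a symbol in GENCODE M21 (build GRCm38), which also gave exon lengths. Counts were used as deposited. edgeR 4.0.16 under R 4.3.3 fitted all 12 libraries as 4 groups, with TMM scaling, filterByExpr (14433 genes left), 8 residual degrees of freedom and the two-sided quasi-likelihood test. Calls needed an adjusted p (Benjamini-Hochberg, over all 14433 genes) under 0.05. Fold changes carry their SE and levels their SD. CPM used the TMM-scaled totals. Totals of 15465187 to 20492567 counts bound the precision of low genes, and counting intervals would cover counting error only.

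The members and gene lists were chosen with earlier results of these data known. Fold changes are given for every member called and, where fewer than 3 were called, for the 4 with the smallest p. From other lists, called genes or at most 2 with the smallest p are named. Single libraries are shown for called members and the 8 with the widest range. Replicate numbers come from the titles. Deviations from the group means of same-numbered libraries correlated at -0.21 to 0.33 in 18 pairs, so the numbers were not taken to pair libraries. Replicates differed beyond counting error, with a chi-square per degree of freedom of 39.5 to 199. Alternatives were other scalings and filters, DESeq2 1.42.0, limma voom 3.58.1, only the groups compared, a block for replicate number, and each library left out in turn.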

Additional observations from a re-analysis of the deposited data

How the results depend on the processing

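Each result was recomputed under 20 alternatives, 12 of which left out 1 library. Of 416 values of named genes 379 kept their direction and side of the threshold, 18 passed it anew and 17 no longer did. The 2 that reversed were Orm3 at -0.81 and Lcn2 at -0.93 in ko_HFD against ko_normal without ko_HFD replicate 1, where leaving out the other libraries gave at most 3.16 and 3.64. For wt_HFD against wt_normal the members called numbered 12 without a low-count filter, 10 with DESeq2, 5 with limma voom and 6 with only the groups compared, against 2; of all genes 2.65%, 4.57%, 2.52% and 0.248% were called there. Leaving out single libraries gave 0 to 5 members, beside 0.0604% to 0.877% of all genes, and medians of 1.02 to 1.34. For ko_normal against wt_normal the count of 0 became 1 without a filter, 1 with DESeq2 and 8 with voom, beside 2.46%, 3.67% and 18.8% of all genes, and single libraries moved the median from -0.03 to 0.35. For ko_HFD against wt_HFD DESeq2 called 1, beside 0.658% of all genes, and the median ran from -1.35 to -0.36. For ko_HFD against ko_normal the unfiltered fit called 1, beside 0.0799% of all genes. There voom gave a median of -0.26, and leaving out single libraries gave -0.46 to 0.53. For the difference between the ko effects voom gave -1.28 and single libraries -1.67 to -0.48. The causes were not tested. With the replicate block, 2 members were called for wt_HFD against wt_normal and 0 in the other 4 comparisons, as without it, while calls over all genes numbered 91 against 100 in wt livers and 45 against 30 for ko_normal against wt_normal. Of 18 same-numbered pairs 4 correlated above 0.1, at most at 0.33, and 7 of 12 libraries correlated best with their own number. The count of 24 members lying above in wt_HFD was 24 under 3 other scalings, where the share of all genes ran from 5.32% to 11.9%. Without wt_normal replicate 2 it was 25, against 15.2% of all genes, but on an unchanged scale leaving out a library cannot lower it. These settings were chosen after seeing the data. Each fit rests on 3 libraries per group, so single libraries weigh heavily, and genes such as Il6 are too low to compare.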

Other observations

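Hamp, which encodes hepcidin, the hormone that limits iron release and is known to be induced by interleukin-6, was chosen after its values were seen. It had 45.6, 1249 and 521 CPM in ko_HFD, 963, 744 and 629 CPM in wt_HFD, 1695, 553 and 253 CPM in ko_normal, and 1379, 812 and 999 CPM in wt_normal. Its lowest library was ko_HFD replicate 1, the one in which Saa1, Saa2, Saa3 and Lcn2 were highest. Its highest was ko_normal replicate 1, in which those 4 genes were lowest of all 12 libraries.

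Endothelial markers were at lower levels in ko_normal than in wt_normal, with sums of 289, 235 and 164 CPM against 331, 394 and 391 CPM. All 8 had a negative fold change, where 48% of all genes had a positive one. An unadjusted edgeR p under 0.05 was reached by 6 of them, where 7.77% of all genes were lower at that p. After adjustment 0 were called. On HFD the sums were 167, 199.9 and 246 CPM in ko_HFD and 223, 302 and 312 CPM in wt_HFD, which overlap. All 8 again had a negative fold change there, with 1 lower at an unadjusted edgeR p under 0.05, against 4.35% of all genes. In wt_HFD against wt_normal all 8 were negative as well, with 4 lower at that p, against 8.51%. No marker was called in either comparison.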
